A study of Mus musculus with 27 samples.

Results

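Expression of 10 members of the cytoplasmic intermediate filament family was followed through TGF-β treatment: vimentin (Vim), nestin (Nes) and the keratins Krt5, Krt6a, Krt7, Krt8, Krt14, Krt17, Krt18 and Krt19. They were taken by name, 10 of the 23295 genes in the parental expression table and 10 of the 24247 genes in the shRNA table, together with the lamin B1 and ATAC peaks called at their loci. The cells are NMuMG, an epithelial line from normal mouse mammary gland in which TGF-β induces epithelial-to-mesenchymal transition (EMT). RNA-seq covered parental cells, cells infected with an irrelevant shRNA (control) and cells infected with an shRNA against lamin B1 (KD), each without TGF-β or after 8 or 24 h of it. The 9 groups had 2 libraries apiece, which the methods of the study describe as biological replicates. Lamin B1 ChIP-seq, on a fraction enriched in euchromatin, and ATAC-seq, which marks accessible chromatin, gave 1 library each for untreated, 8 h and 24 h cells without shRNA. The labels give TGF-β as 1 to 5 ng/ml, and all groups share one growth medium with serum and insulin. Infected cells had been selected with puromycin, and the KD cells kept some lamin B1 RNA.

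Intermediate filaments are rope-like polymers that give cells their mechanical strength. Keratins are the filaments of epithelia and assemble only as pairs of a type II chain with a type I chain, so that Krt8 pairs with Krt18 in simple epithelia, Krt5 with Krt14 in basal cells, and Krt6a with Krt16 or Krt17 in stressed epithelia. Vimentin, a type III protein, forms the filaments of mesenchymal cells, and its gain together with the loss of keratins is a textbook sign of EMT, while nestin is a type VI protein of progenitor cells that assembles with vimentin.

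The loci below are given on mm9 with the GENCODE M1 annotation. Vim lies on chromosome 2 from 13495554 to 13504453 on the plus strand and Nes on chromosome 3 from 87775000 to 87784373, also on the plus strand. The type II genes Krt7 (101241474 to 101260744, plus), Krt6a (101520363 to 101524738, minus), Krt5 (101537501 to 101543322, minus) and Krt8 (101827142 to 101834773, minus) share a keratin cluster on chromosome 15. Krt18 (101858647 to 101862457, plus) closes that cluster beside Krt8, although its product is a type I chain. The other type I genes sit in a cluster on chromosome 11, namely Krt19 (100002124 to 100009979), Krt14 (100064476 to 100068862) and Krt17 (100117531 to 100122343), each on the minus strand. All 10 are protein-coding genes.

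Promoter sequences are shown for 5 genes whose start carried a called lamin B1 or ATAC peak, since these windows are compared with the peaks further on. Each runs 5′ to 3′ on the strand of the gene from 250 bases before to 50 after the RefSeq start, on GRCm38.p6: Vim at chr2:13574061-13574360, Nes at chr3:87970843-87971142, Krt8 at chr15:102004293-102004592, Krt18 at chr15:102027966-102028265 and Krt5 at chr15:101712856-101713155. RefSeq held a promoter for 7 of the 10 genes, and each of the 7 matched 1 place of the mm9 genome exactly. The Krt7 window, not printed, also overlapped lamin B1 peaks in untreated cells and at 24 h. Capitals mark matches, on either strand, to TATAAA (the TATA box), CAGGTG (the E-box of Snail and Zeb factors), CCAAT (the box of NF-Y), GGGCGG (the GC box of Sp1 factors), CAGAC (the Smad half-site) and TGANTCA (the AP-1 site).
Vim: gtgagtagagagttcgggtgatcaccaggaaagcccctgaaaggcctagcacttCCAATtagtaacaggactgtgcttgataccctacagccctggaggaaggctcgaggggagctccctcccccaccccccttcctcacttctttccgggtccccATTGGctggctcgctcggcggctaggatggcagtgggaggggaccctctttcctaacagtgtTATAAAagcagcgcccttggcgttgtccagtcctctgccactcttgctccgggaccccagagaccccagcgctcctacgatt
Nes: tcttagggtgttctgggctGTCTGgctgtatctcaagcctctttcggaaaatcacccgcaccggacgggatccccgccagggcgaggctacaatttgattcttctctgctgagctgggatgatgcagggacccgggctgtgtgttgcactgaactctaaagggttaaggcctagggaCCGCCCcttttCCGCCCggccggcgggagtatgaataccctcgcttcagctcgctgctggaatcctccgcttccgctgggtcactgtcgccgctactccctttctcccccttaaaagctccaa
Krt8: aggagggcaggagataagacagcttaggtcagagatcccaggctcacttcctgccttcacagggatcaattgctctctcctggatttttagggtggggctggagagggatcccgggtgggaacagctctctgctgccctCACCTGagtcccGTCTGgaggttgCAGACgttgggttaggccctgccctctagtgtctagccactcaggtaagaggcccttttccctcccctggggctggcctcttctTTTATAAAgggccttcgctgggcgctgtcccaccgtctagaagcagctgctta
Krt18: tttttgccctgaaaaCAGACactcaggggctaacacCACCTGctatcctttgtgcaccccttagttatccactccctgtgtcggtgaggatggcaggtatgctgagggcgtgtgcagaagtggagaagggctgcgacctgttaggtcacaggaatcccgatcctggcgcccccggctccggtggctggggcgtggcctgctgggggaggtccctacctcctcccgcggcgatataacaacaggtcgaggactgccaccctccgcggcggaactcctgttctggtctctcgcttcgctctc
Krt5: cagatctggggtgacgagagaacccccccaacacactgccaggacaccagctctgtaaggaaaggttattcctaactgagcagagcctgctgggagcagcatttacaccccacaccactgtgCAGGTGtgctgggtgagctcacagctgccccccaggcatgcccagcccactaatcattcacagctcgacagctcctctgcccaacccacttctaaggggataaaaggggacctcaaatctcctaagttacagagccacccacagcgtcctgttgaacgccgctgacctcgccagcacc

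The Vim window held 1 TATAAA close to its start and 2 CCAAT, and the Krt8 window held a run in which TATAAA and its reverse complement overlap, counted as 2. TATAAA was found in 13.6% of all 32544 promoters of the same length and CCAAT in 37.4%. The Krt8, Krt18 and Krt5 windows each held 1 CAGGTG, which 20.3% of promoters hold, and Vim and Nes held 0. CAGAC, present in 49.5% of promoters, was found 2 times in Krt8, 1 time in Krt18 and 1 time in Nes, and the Nes window also held 2 GGGCGG, a motif of 35.9% of promoters. TGANTCA, in 7.79% of promoters, was in none of the 7 windows. These are letter matches only.

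The lamin B1 gene was read first as the check of the labels. Lmnb1 was lower in each KD library than in each control library at every time, with mean levels 3.595-fold lower in untreated cells (adjusted p = 0.000573, limma), 4.07-fold lower at 8 h (adjusted p = 0.000189) and 3.05-fold lower at 24 h (adjusted p = 0.000901). Here and throughout, FPKM is a level per length of transcript, a difference is on the log2(FPKM + 1) scale, and a gene is called at an adjusted p under 0.05 over all genes tested. Replicates correlated at 0.983 to 0.994 in log2(FPKM + 1) across genes. The luminal keratin pair was among the most abundant RNAs, and the other luminal markers were mixed: Cldn3 did not exceed 0.0562 FPKM, Epcam lay between 0.171 and 3.15 FPKM and Gata3 between 0.206 and 0.955 FPKM, while Cd24a lay between 355 and 465 FPKM. Foxa1 had group means of 2.73 to 6.51 FPKM, and Cldn4, at most 0.147 FPKM in any untreated library, rose by 24 h to means of 8.44 FPKM in parental, 9.41 FPKM in control and 7.27 FPKM in KD cells (adjusted p = 6.89e-06, 1.63e-06 and 3.3e-06, limma). The luminal markers Elf5, Esr1, Pgr and Prlr did not reach 1 FPKM in any library. Basal markers were mixed too. The basal regulator Trp63 did not exceed 0.0520 FPKM, and Myh11, Cnn1, Oxtr and Lgr5 did not reach 1 FPKM in any library. In untreated parental cells the means were 32.3 FPKM for Itga6, 32.8 FPKM for Itgb4, 4.98 FPKM for Mylk and 2.62 FPKM for Acta2. Among 12 markers of leukocytes, endothelium, fat cells and fibroblasts, 4 reached 1 FPKM in 2 or more parental libraries and 2 did so in the shRNA table, their sum was 8.56 to 12.5 FPKM in parental libraries and 1.40 to 3.998 FPKM in shRNA libraries, and the leukocyte marker Ptprc did not exceed 0.0178 FPKM. Among them Pdgfrb, a marker of stromal cells, was called higher at 24 h than untreated in all 3 kinds of cells, with at most 0.210 FPKM in any untreated library and 1.04 to 1.83 FPKM in the libraries of 24 h (adjusted p = 8.45e-06, 7.73e-06 and 3.72e-06 in parental, control and KD cells, limma). Only genes at 1 FPKM or more in at least 2 libraries were tested. Pdgfrb met this through its 24 h libraries alone and Cldn4 through treated libraries alone, so both rises are partly fixed by that filter. Which other cells could add to the levels below was not tested. In bulk RNA, fewer cells of a type and less RNA per cell cannot be told apart.

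**Figure D1:**
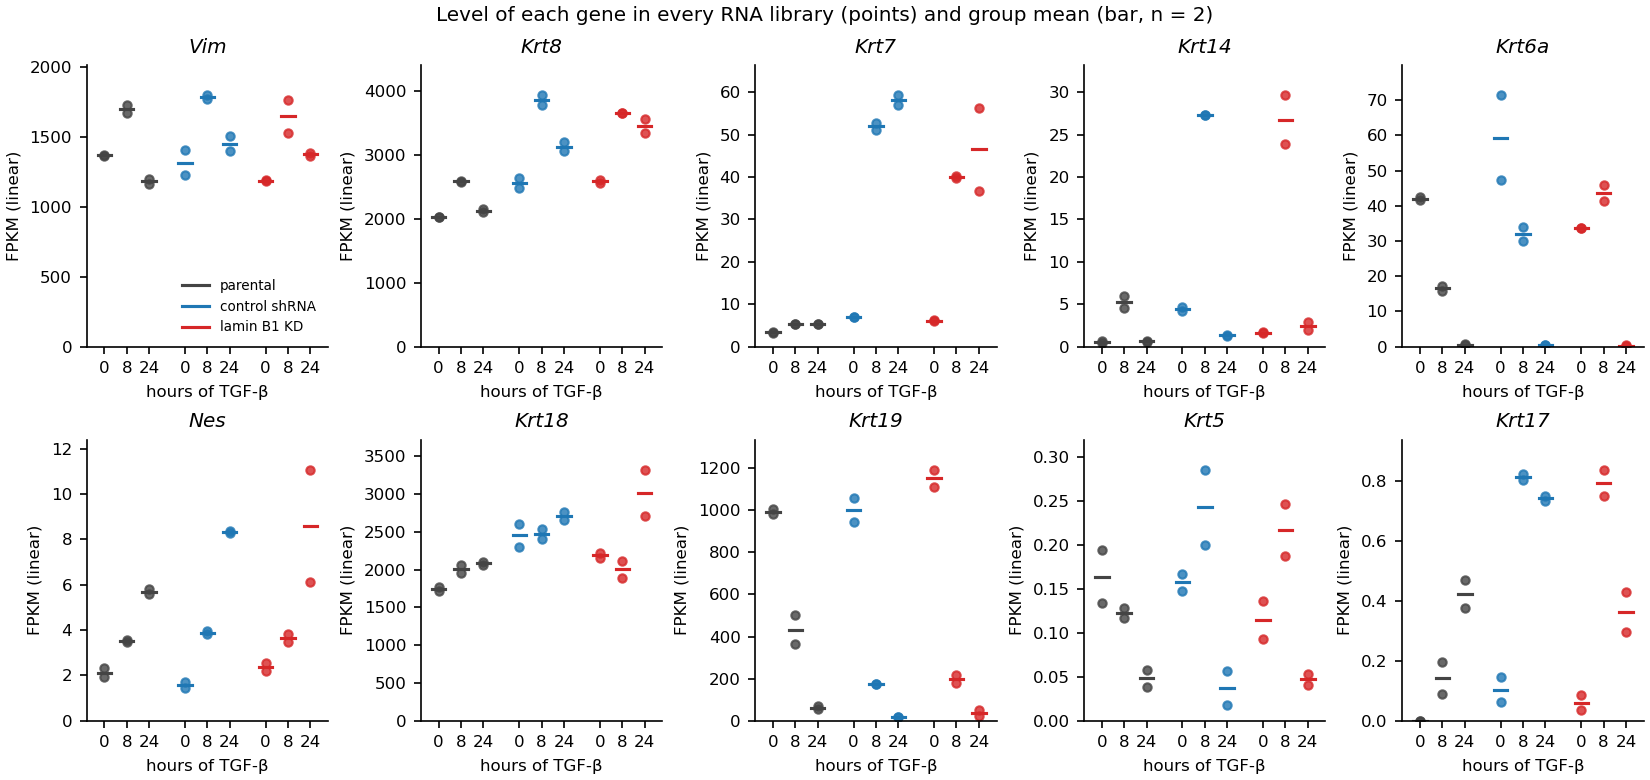
FPKM of the 10 genes in every RNA library, on linear axes that start at 0 and differ between panels. Points are libraries, bars are means of the 2 replicates, and colours mark parental, control and KD cells at 0, 8 and 24 h of TGF-β. Vim, Krt8 and Krt18 stayed above 1000 FPKM in every library, Krt19 and Krt6a were low at 24 h, Krt14 was high at 8 h alone, and Krt5 and Krt17 stayed under 1 FPKM.

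The 10 genes spanned a wide range of levels, and most of their order was shared by all 9 groups. Krt8 came first, then Krt18 and then Vim in every group, and Krt8 and Krt18 together made up 76.0% to 96.2% of the summed FPKM of all listed keratins. Krt8 ranked between 8 and 39 among all genes of a library and Krt18 between 20 and 51. The levels of neighbours in this order overlapped between libraries in 8 places: Krt8 and Krt18 in parental cells at 24 h and in untreated control cells, Vim and Krt19 in untreated KD cells, Krt7 and Krt19 in KD cells at 24 h, and pairs under 6 FPKM in the other 4. At the foot, Krt5 and Krt17 did not reach 1 FPKM in any library, so 8 of the 10 genes passed the filter of 1 FPKM in at least 2 libraries in each table. Krt14 passed it in the parental table through its 8 h libraries alone, so its rise there, and its fall from 8 to 24 h, are partly fixed by the filter. Krt6a passed it in both tables through untreated and 8 h libraries alone, so its fall at 24 h is partly fixed as well.

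Vim was already high in untreated cells and moved little. It read 1371 and 1361 FPKM in untreated parental cells, 1665 and 1728 FPKM after 8 h, then 1199 and 1164 FPKM after 24 h. In control cells it read 1222 and 1405 FPKM untreated, 1795 and 1768 FPKM after 8 h, then 1505 and 1394 FPKM after 24 h. In KD cells it read 1185 and 1187 FPKM untreated, 1529 and 1763 FPKM after 8 h, then 1365 and 1384.5 FPKM after 24 h. The 8 h libraries stood above the untreated ones in all 3 kinds of cells, and at 24 h the parental libraries stood below them.

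Vim rose at 8 h by 0.31 in parental cells (SE 0.045, adjusted p = 0.0013, limma), by 0.44 in control cells (SE 0.082, adjusted p = 0.00133) and by 0.47 in KD cells (SE 0.082, adjusted p = 0.000844). At 24 h it fell by 0.21 in parental cells (adjusted p = 0.00489), the difference was 0.14 in control cells (95% interval -0.04 to 0.33, adjusted p = 0.142), and it rose by 0.21 in KD cells (adjusted p = 0.0414). The parental fall shrank to a difference of -0.01 after quantile normalization (adjusted p = 0.817) and was not called without 1 of the 24 h libraries, and the KD rise was not called under 6 of 9 alternatives, which include leaving out any 1 of its 4 libraries. From 8 to 24 h Vim fell by 0.52 in parental cells (adjusted p = 0.000132).

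Nes, which stayed far below Vim, rose with time. It read 1.93 and 2.32 FPKM in untreated parental cells, 3.47 and 3.57 FPKM after 8 h, then 5.59 and 5.81 FPKM after 24 h. In control cells it went from 1.44 and 1.72 FPKM to 3.96 and 3.83 FPKM after 8 h and then to 8.36 and 8.28 FPKM after 24 h. In KD cells it went from 2.22 and 2.56 FPKM to 3.85 and 3.46 FPKM after 8 h and then to 6.12 and 11.1 FPKM after 24 h. The 3 time points did not overlap in any of the 3 kinds of cells. Nes rose at 24 h by 1.10 in parental (SE 0.074, adjusted p = 1.51e-05), 1.85 in control (SE 0.197, adjusted p = 3.25e-05) and 1.46 in KD cells (SE 0.197, adjusted p = 0.000153) by limma. At 8 h it rose by 0.53 in parental and 0.92 in control cells, and the KD difference of 0.46 was not called (adjusted p = 0.0665).

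The simple-epithelial pair Krt8 and Krt18 was not lost. Krt8 read 2031 and 2024 FPKM in untreated parental cells, 2599 and 2583 FPKM after 8 h, then 2154 and 2108 FPKM after 24 h. In control cells it read 2487 and 2637 FPKM untreated, 3789 and 3938 FPKM after 8 h, then 3063 and 3200.5 FPKM after 24 h. KD cells gave 2569 and 2614 FPKM untreated, 3661 and 3663 FPKM after 8 h, then 3345 and 3561 FPKM after 24 h. Every 8 h library stood above every untreated library of its kind. Krt8 rose at 8 h by 0.35 in parental cells (adjusted p = 0.000818), 0.59 in control cells (adjusted p = 1.76e-05) and 0.50 in KD cells (adjusted p = 3.94e-05) by limma. At 24 h the difference was 0.07 in parental cells (95% interval -0.04 to 0.18), and Krt8 rose by 0.29 in control cells (adjusted p = 0.00103) and by 0.41 in KD cells (adjusted p = 0.000108).

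The Krt8 calls in infected cells leaned on the scaling. Quantile normalization raised the median difference of all genes by 0.12 in control cells at 8 h, 0.13 in control cells at 24 h and 0.10 in KD cells at 8 h, and under it the Krt8 differences were 0.31 in control cells at 8 h (adjusted p = 0.104) and 0.03 at 24 h (adjusted p = 0.853). The KD difference at 24 h was 0.23 (adjusted p = 0.199) under the same setting, while the KD rise at 8 h was called under all 9 alternatives. With that setting the share of called genes that were higher moved from 30.2% to 46% in control cells at 8 h, from 36.1% to 50% at 24 h, from 33.9% to 46% in KD cells at 8 h and from 39.8% to 50.1% in KD cells at 24 h.

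Krt18, the type I partner of Krt8, followed a flatter course. It read 1776 and 1719.7 FPKM in untreated parental cells, 1958 and 2059.9 FPKM after 8 h, then 2068 and 2108 FPKM after 24 h, the last of these identical to the Krt8 value listed for the same library. Control cells gave 2307 and 2606 FPKM untreated, 2408 and 2534 FPKM after 8 h, then 2659.8 and 2765 FPKM after 24 h. In KD cells it read 2153 and 2224 FPKM untreated, 1894 and 2112 FPKM after 8 h, then 2714 and 3324 FPKM after 24 h. The 8 h libraries lay above untreated ones in parental cells, within their range in control cells and below them in KD cells. Krt18 rose in parental cells by 0.20 at 8 h (adjusted p = 0.0138) and by 0.26 at 24 h (adjusted p = 0.00308), and in KD cells by 0.46 at 24 h (adjusted p = 0.00292), by limma. The parental call at 8 h was lost without 1 of the 8 h libraries, and the KD rise was 0.20 and not called after quantile normalization (adjusted p = 0.0617). The control differences were 0.01 at 8 h (adjusted p = 0.934) and 0.15 at 24 h (adjusted p = 0.223), and the KD difference at 8 h was -0.13 (adjusted p = 0.279).

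Krt19, a type I keratin of simple and luminal epithelium, fell most among the abundant members. It read 1005 and 982 FPKM in untreated parental cells, 363 and 501 FPKM after 8 h, then 55.5 and 69.1 FPKM after 24 h. In control cells it fell from 1056 and 945 FPKM to 174 and 176 FPKM after 8 h and then to 18.04 and 19.6 FPKM after 24 h. In KD cells it fell from 1192 and 1109 FPKM to 178 and 218 FPKM after 8 h and then to 22.1 and 52.6 FPKM after 24 h. No library of a later time overlapped one of an earlier time in the same cells. The difference at 24 h was -3.98 in parental (SE 0.154, adjusted p = 1.57e-06), -5.66 in control (SE 0.306, adjusted p = 4.16e-07) and -5.03 in KD cells (SE 0.306, adjusted p = 7.81e-07) by limma, ratios of the untreated to the 24 h mean of 15.9, 53.1 and 30.8. Krt19 held 14.7% to 20.1% of the summed keratin FPKM in untreated libraries and 0.303% to 1.56% at 24 h.

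Krt7, a type II keratin of simple ductal epithelium, rose instead. It read 3.48 and 3.19 FPKM in untreated parental cells, 5.23 and 5.21 FPKM after 8 h, then 5.23 and 5.44 FPKM after 24 h. In control cells it went from 6.96 and 7.03 FPKM to 51.1 and 52.8 FPKM after 8 h and then to 59.2 and 57.0 FPKM after 24 h. In KD cells it went from 6.01 and 6.21 FPKM to 39.8 and 40.2 FPKM after 8 h and then to 36.6 and 56.3 FPKM after 24 h. All treated libraries stood above all untreated ones of their kind. The rise at 8 h was 0.52 in parental cells (SE 0.060, adjusted p = 0.00046), 2.73 in control cells (SE 0.151, adjusted p = 9.55e-07) and 2.53 in KD cells (SE 0.151, adjusted p = 1.16e-06) by limma. At 24 h it was 0.55, 2.89 and 2.71 in the same order. Parental and infected cells stand in tables that were normalized separately, so the difference between their rises was not tested.

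Krt14, the type I keratin of basal cells, rose and returned. It read 0.653 and 0.447 FPKM in untreated parental cells, 5.99 and 4.53 FPKM after 8 h, then 0.492 and 0.715 FPKM after 24 h. In control cells it read 4.65 and 4.14 FPKM untreated, 27.3 and 27.3 FPKM after 8 h, then 1.28 and 1.39 FPKM after 24 h. KD cells gave 1.71 and 1.55 FPKM untreated, 23.8 and 29.6 FPKM after 8 h, then 2.84 and 1.99 FPKM after 24 h. The 8 h libraries stood above all others of their kind, and at 24 h the control libraries lay below the untreated ones while the KD libraries lay above theirs. The rise at 8 h was 2.01 in parental cells (SE 0.133, adjusted p = 6.14e-05), 2.40 in control cells (SE 0.127, adjusted p = 7.56e-07) and 3.39 in KD cells (SE 0.127, adjusted p = 8.93e-08) by limma. The parental rise is partly fixed by the filter. At 24 h the parental difference was 0.05 (adjusted p = 0.761), Krt14 fell by 1.21 in control cells (adjusted p = 3.08e-05) and it rose by 0.37 in KD cells (adjusted p = 0.0284), a call that was lost under 5 of 9 alternatives, among them leaving out KD replicate 1 at 24 h or either untreated KD library. Its type II partner Krt5 was between 0.0179 and 0.285 FPKM in all 18 libraries.

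Krt6a, a type II keratin known to be induced in wounded and hyperproliferative epithelium, was nearly lost by 24 h. It read 41.6 and 42.4 FPKM in untreated parental cells, 17.2 and 15.8 FPKM after 8 h, then 0.472 and 0.618 FPKM after 24 h. Control cells gave 47.4 and 71.3 FPKM untreated, 34.0 and 29.9 FPKM after 8 h, then 0.340 and 0.354 FPKM after 24 h. In KD cells it read 33.736 and 33.738 FPKM untreated, 41.3 and 45.8 FPKM after 8 h, then 0.346 and 0.141 FPKM after 24 h. The 8 h libraries lay below the untreated ones in parental and control cells and above them in KD cells. The difference at 24 h was -4.80 in parental (SE 0.067, adjusted p = 1.28e-07), -5.46 in control (SE 0.165, adjusted p = 1.55e-08) and -4.81 in KD cells (SE 0.165, adjusted p = 2.85e-08) by limma. At 8 h Krt6a fell by 1.30 in parental cells (adjusted p = 3.49e-05) and by 0.85 in control cells (adjusted p = 0.00179), and the KD difference was 0.36 (95% interval -0.02 to 0.73, adjusted p = 0.0829). Krt17, a type I keratin of stressed epithelium, was 0 in both untreated parental libraries, 0.0889 and 0.196 FPKM after 8 h and 0.376 and 0.471 FPKM after 24 h, and did not exceed 0.838 FPKM in the shRNA table.

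**Figure D2:**
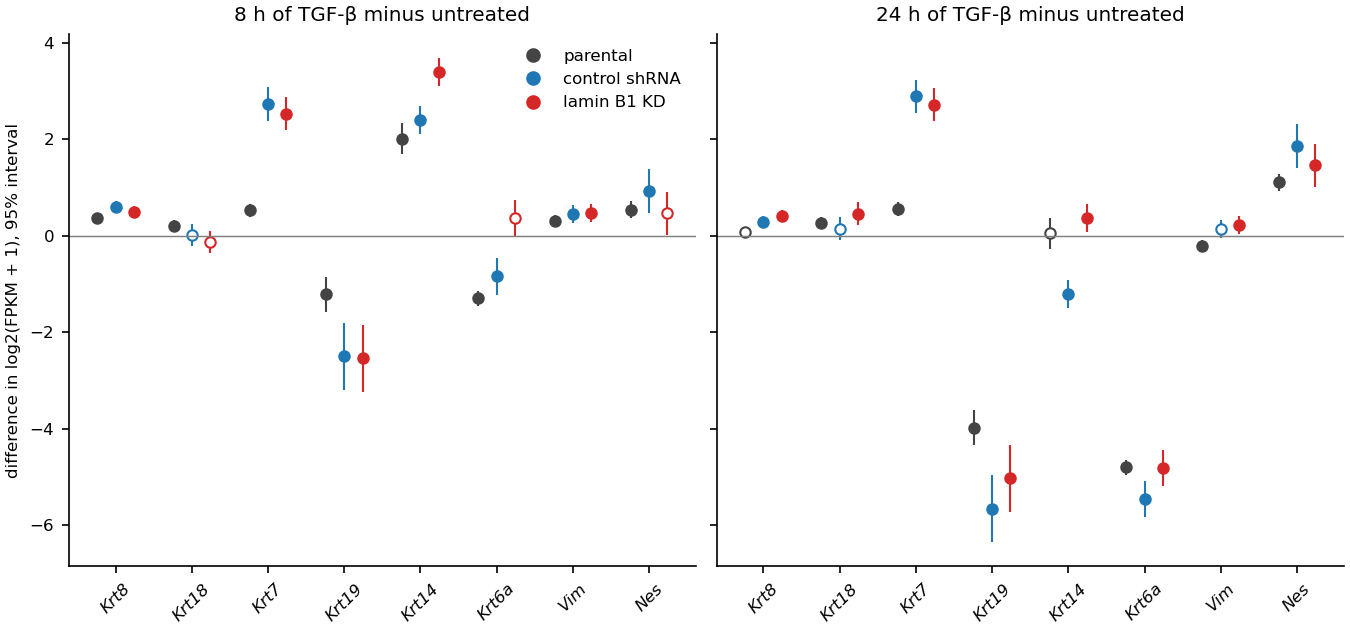
Difference in log2(FPKM + 1) between treated and untreated cells at 8 h (left) and 24 h (right) for the 8 genes that passed the filter, with 95% intervals from limma. Filled circles were called and open circles were not. Krt19 and Krt6a lie between -5.66 and -3.98 at 24 h in all 3 kinds of cells, Nes rose, and the Krt7 rise was 0.55 in parental cells against 2.89 in control and 2.71 in KD cells.

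In parental cells at 8 h, 8 of 8 tested members were called, 6 higher and 2 lower, where 54.5% of all genes tested were called, 22.4% higher and 32.1% lower. At 24 h 6 were called, 3 in each direction, against 70.5% of all genes, 33.4% higher and 37.1% lower. In control cells at 8 h 5 were higher and 2 lower, against 64.3% of all genes (19.4% higher, 44.9% lower), and at 24 h 3 were called in each direction, against 70.7% (25.5% higher, 45.1% lower). In KD cells at 8 h 4 were higher and 1 lower, against 67.8% of all genes (23.0% higher, 44.8% lower), and at 24 h 6 were higher and 2 lower, against 71.9% (28.6% higher, 43.3% lower). The last of these counts was 5 after quantile normalization. From 8 to 24 h, 1 was called higher and 5 lower in parental cells, where 51.8% of all genes were called (27.7% higher, 24.0% lower), and likewise in control cells, where 49.7% were (25.2% higher, 24.5% lower). In KD cells 2 were higher and 4 lower over that step, against 51.8% of all genes (28.0% higher, 23.8% lower). The median difference of the tested members at 8 h was 0.33 in parental, 0.52 in control and 0.46 in KD cells, where the median of all genes tested was -0.05, -0.14 and -0.13. In parental cells the 6 higher at 8 h and that median include Krt14, whose rise the filter favours. The 5 lower from 8 to 24 h include its fall, favoured likewise. The lower counts at 24 h include Krt6a in every kind of cells, whose fall the filter favours too.

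The remaining keratins were counted from a list of 20 other type II and 23 other type I genes, of which 9 and 3 passed the filter in each table. Of the 9 type II genes, 5 were called higher and 2 lower in parental cells after 8 h, while 2 were higher and 3 lower after 24 h. All 3 lower after 24 h passed the filter through untreated and 8 h libraries alone, so that count is partly fixed by it. Of all genes tested, 22.4% were higher and 32.1% lower after 8 h, and 33.4% and 37.1% after 24 h. In control cells 5 were called higher and 2 lower after 8 h, and 3 in each direction after 24 h. The 3 lower there include Krt6b, whose fall the filter favours likewise. There 19.4% of all genes were higher and 44.9% lower after 8 h, and 25.5% and 45.1% after 24 h. In KD cells 6 were called higher and 0 lower after 8 h, where the other 3 were not called. Of all genes, 23.0% were higher and 44.8% lower in those cells after 8 h. Krt6b, a paralog of Krt6a close enough in sequence that the counting could split reads between them, fell by 3.46 in control cells at 24 h (adjusted p = 4.51e-08), and Krt76, a keratin of the palate and gums, fell by 2.83 in parental cells at 24 h (adjusted p = 2.64e-06) by limma. Both genes passed the filter in these tables through untreated and 8 h libraries alone, so their falls at 24 h are partly fixed by it. Krt75, a hair follicle keratin, rose by 1.01 in control cells at 8 h (adjusted p = 0.000441), and Krt80 rose by 0.63 in KD cells at 8 h (adjusted p = 0.000625).

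Of the 3 other type I genes, 2 were called higher and 0 lower at 8 h in each kind of cells, namely Krt16 and Krt20. In the parental table Krt16 passed the filter through treated libraries alone, so its rise there is partly fixed by it. Of all genes tested, 22.4% were higher at 8 h in parental, 19.4% in control and 23.0% in KD cells. Krt20, a keratin of intestinal epithelium and urothelium, had a mean of 84.3 FPKM in untreated parental cells, 221 FPKM after 8 h and 84.9 FPKM after 24 h. It rose at 8 h by 1.38 in parental cells (adjusted p = 5.67e-05) and by 2.03 in control cells (adjusted p = 2.27e-07), and it was higher in KD than in control cells at all 3 times, by 0.87 untreated (adjusted p = 0.00046, limma). Krt16, the type I partner of Krt6a and a close paralog of Krt14 and Krt17, rose by 2.96 in KD cells at 8 h (adjusted p = 2.98e-07), from a mean of 1.38 to 17.5 FPKM.

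Proteins that link filaments to junctions or to the nucleus moved in both directions. Of 12 linker genes tested in parental cells, 5 were called higher and 3 lower after 8 h, then 5 in each direction after 24 h. Among all genes tested, 22.4% were higher and 32.1% lower after 8 h, and 33.4% and 37.1% after 24 h. Of 13 tested in control cells, 6 were called higher and 4 lower after 8 h, where 19.4% of all genes were higher and 44.9% lower. Pkp1, a plakophilin that joins keratins to desmosomes, rose from a mean of 3.29 to 61.5 FPKM in KD cells at 24 h (log2 difference 3.86, adjusted p = 5.74e-10). Ppl, or periplakin, which binds keratin and vimentin at the cell edge, fell from a mean of 32.5 to 3.22 FPKM in control cells at 24 h (log2 difference -2.99, adjusted p = 2.97e-07). Jup, or plakoglobin, rose by 1.15 in KD cells at 8 h (adjusted p = 4.44e-06), and Plec, or plectin, rose by 1.02 in control cells at 8 h (adjusted p = 4.56e-05). Among the nuclear lamins, Lmna fell by 0.77 from 8 to 24 h in parental cells (adjusted p = 1.32e-05), and Lmnb2 was lower by 0.68 in KD than in control cells at 8 h (adjusted p = 0.000111).

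**Figure D3:**
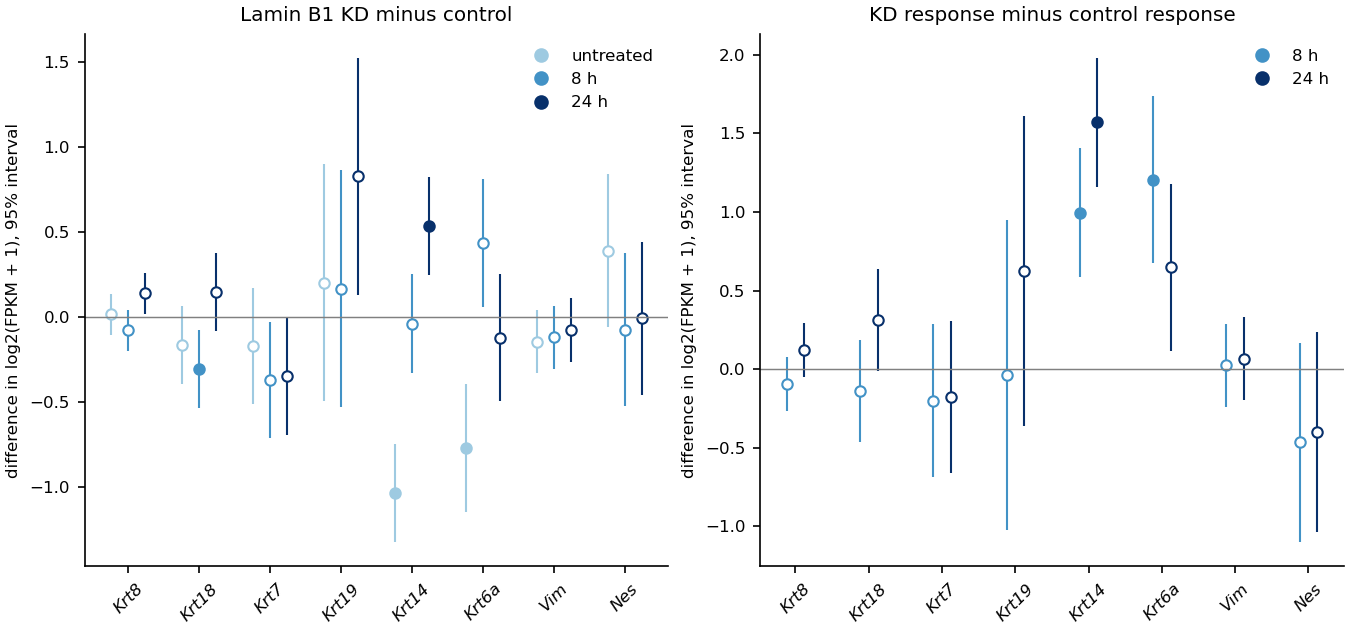
Difference in log2(FPKM + 1) between KD and control cells at each time (left), and the TGF-β response of KD cells minus that of control cells (right), with 95% intervals from limma for the 8 genes that passed the filter. Filled circles were called. Krt14 was 1.03 lower untreated and 0.54 higher at 24 h, and its response differed by 1.57 at 24 h.

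Among the 10 genes, the clearest differences between KD and control cells were in Krt14. With 2 libraries a group, a gene that was not called may still differ. In untreated cells 2 of 8 tested members were called lower, where 19.7% of all genes were called, 10.6% higher and 9.09% lower. Krt14 was lower by 1.03 (SE 0.127, adjusted p = 0.00124, limma), a ratio of control to KD means of 2.69, and held this call under all 9 alternatives. Krt6a was lower by 0.77 (adjusted p = 0.0142), and this call was lost under 5 of 9 alternatives, among them leaving out either untreated KD library, with adjusted p up to 0.0981. At 8 h 1 of 8 was called, where 35.8% of all genes were (19.3% higher, 16.5% lower): Krt18 was lower by 0.30 (adjusted p = 0.044), a call lost under 6 of 9 alternatives, and 0 members were called without any 1 of the 4 libraries compared. At 24 h 1 of 8 was called, where 28.3% of all genes were (16.8% higher, 11.5% lower): Krt14 was higher by 0.54 (adjusted p = 0.0156), lost under 4 of 9 alternatives, among them leaving out either control library.

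The TGF-β responses of KD and control cells were compared directly. At 8 h the response of Krt6a was higher in KD cells by 1.21 (SE 0.233, adjusted p = 0.033, limma) and that of Krt14 by 1.00 (SE 0.180, adjusted p = 0.0283), 2 of 8 members where 4.06% of all genes were called, 2.45% higher and 1.61% lower. The Krt6a call was lost under 9 and the Krt14 call under 8 of 13 alternatives, with adjusted p up to 0.132 and 0.123, and both calls were lost without any 1 of the 4 libraries at 8 h or either untreated KD library. At 24 h the response of Krt14 was higher in KD cells by 1.57 (SE 0.180, adjusted p = 0.00432), 1 of 8 members where 4.72% of all genes were called (2.73% higher, 1.98% lower), and this call held under all 13 alternatives with values from 1.39 to 2.16. At 8 h itself the Krt14 levels of KD and control cells overlapped (difference -0.04, adjusted p = 0.839), and the untreated level, which was lower in KD cells, enters both responses. Krt6b, whose reads the counting could share with Krt6a, differed likewise in response at 8 h, by 1.01 (adjusted p = 0.0262).

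Other basal markers did not follow one order with Krt14. Of 4 basal genes that passed the filter outside the keratins, 1 was called higher in KD cells untreated, 3 at 8 h and 3 at 24 h. Of all genes tested, 10.6%, 19.3% and 16.8% were called higher at those times. Untreated, when Krt14 was lower in KD cells, Mylk was higher by 0.49 (adjusted p = 0.00404, limma). Acta2, Mylk and Itgb4 were higher in KD cells at 8 h, when Krt14 did not separate the groups, and at 24 h, when Krt14 was higher. Acta2 was under 1 FPKM on average in both groups at 8 h, and Itga6 was not called at any time, with differences of -0.11, 0.34 and 0.002. Itgb4, the integrin that anchors keratins at hemidesmosomes, was higher by 0.51 at 8 h (adjusted p = 0.00017) and by 0.62 at 24 h (adjusted p = 0.000125), by limma. The summed level of the 9 basal markers was 93.3 to 95.7 FPKM in control and 129 to 132 FPKM in KD cells at 8 h, 72.5 to 83.3 and 79.8 to 81.5 FPKM untreated, and 43.5 to 44.6 and 57.8 to 64.2 FPKM at 24 h, while Oxtr and Trp63 stayed near 0. Their part in the Krt14 difference was not tested.

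Vim was not called between KD and control cells, although both KD libraries lay below both control libraries at each of the 3 times. The untreated difference was -0.14 (95% interval -0.33 to 0.04), the 8 h difference -0.12 (interval -0.30 to 0.07) and the 24 h difference -0.08 (interval -0.26 to 0.11), with adjusted p of 0.253, 0.295 and 0.521 by limma, and the sign at the first 2 times turned to 0.06 and 0.14 after quantile normalization. The Vim responses differed by 0.03 at 8 h (95% interval -0.24 to 0.29) and by 0.07 at 24 h (-0.19 to 0.33). Krt19 was higher in KD cells at 24 h by 0.83 (95% interval 0.13 to 1.53, adjusted p = 0.0735) and was not called. Krt7 was not called either, although its KD libraries lay below its control libraries at each time. Its difference was -0.17 untreated (adjusted p = 0.472, limma), -0.37 at 8 h (95% interval -0.713 to -0.027, adjusted p = 0.0876) and -0.35 at 24 h (-0.691 to -0.004, adjusted p = 0.115).

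The 2 KD libraries at 24 h lay apart for several genes. Replicate 2 was above replicate 1 in Nes, Krt7, Krt18 and Krt19, with 52.6 against 22.1 FPKM for Krt19. Without replicate 1, the difference between KD and control cells at 24 h was 1.43 for Krt19, 0.38 for Nes and -0.04 for Krt7. Without replicate 2 it was 0.22 for Krt19, -0.39 for Nes and -0.65 for Krt7. Without control replicate 1 or 2 it was 0.77 or 0.89 for Krt19 and -0.32 or -0.38 for Krt7. In these fits the lone library of a group was assumed to vary like the other groups.

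The balance between type II and type I chains was measured as the ratio of their FPKM in each library after adding 0.1 to both. Krt8/Krt18 lay between 1.00 and 1.93 in all 18 libraries: it was 1.14 and 1.18 in untreated parental cells and 1.25 and 1.33 at 8 h, 1.01 and 1.08 in untreated control cells and 1.55 and 1.57 at 8 h, and 1.18 and 1.19 in untreated KD cells and 1.73 and 1.93 at 8 h. The log2 ratio rose at 8 h by 0.46 on average over the 3 kinds of cells (two-sided exact permutation within kind, p = 0.00926, adjusted p = 0.0139 over 6 tests), the smallest p that the design allows. At 24 h the mean difference was -0.03 (exact permutation p = 0.63), made of -0.19 in parental, 0.14 in control and -0.04 in KD cells. The ratios at 24 h were 1.04 and 1.00 in parental cells, below the untreated ones, and 1.15 and 1.16 in control cells, above them. KD cells exceeded control cells by 0.13 on average over the 3 times (exact permutation p = 0.037, adjusted p = 0.0444), but by 0.18 untreated, 0.23 at 8 h and -0.01 at 24 h, and the adjusted p passed 0.05 without 10 of the 12 libraries in turn.

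Krt7/Krt19 moved over orders of magnitude. The ratio was 0.00336 and 0.00356 in untreated parental cells and 0.0800 and 0.0958 at 24 h, while control cells went from 0.00668 and 0.00755 to 2.89 and 3.27, and KD cells from 0.00512 and 0.00569 to 1.07 and 1.65. Thus at 24 h Krt7 exceeded Krt19 in every infected library and in no parental one. The log2 ratio rose on average by 4.16 at 8 h and by 7.12 at 24 h (exact permutation p = 0.00926 each, adjusted p = 0.0139). In parental, control and KD cells the rise was 1.851, 5.385 and 5.236 at 8 h, and 4.662, 8.759 and 7.945 at 24 h. Krt7 lay far below Krt19 in untreated cells, so this ratio does not measure balance within a pair. The log2 Krt7/Krt19 ratio was lower in KD than in control cells by 0.72 on average (exact permutation p = 0.00926, adjusted p = 0.0139), by 0.40 untreated, 0.55 at 8 h and 1.21 at 24 h. Krt5/Krt14 and Krt6a/Krt17 are given as values only because Krt5 and Krt17 stayed under 1 FPKM: Krt6a/Krt17 was 417 and 425 in untreated parental cells and 1.00 and 1.51 at 24 h.

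**Figure D4:**
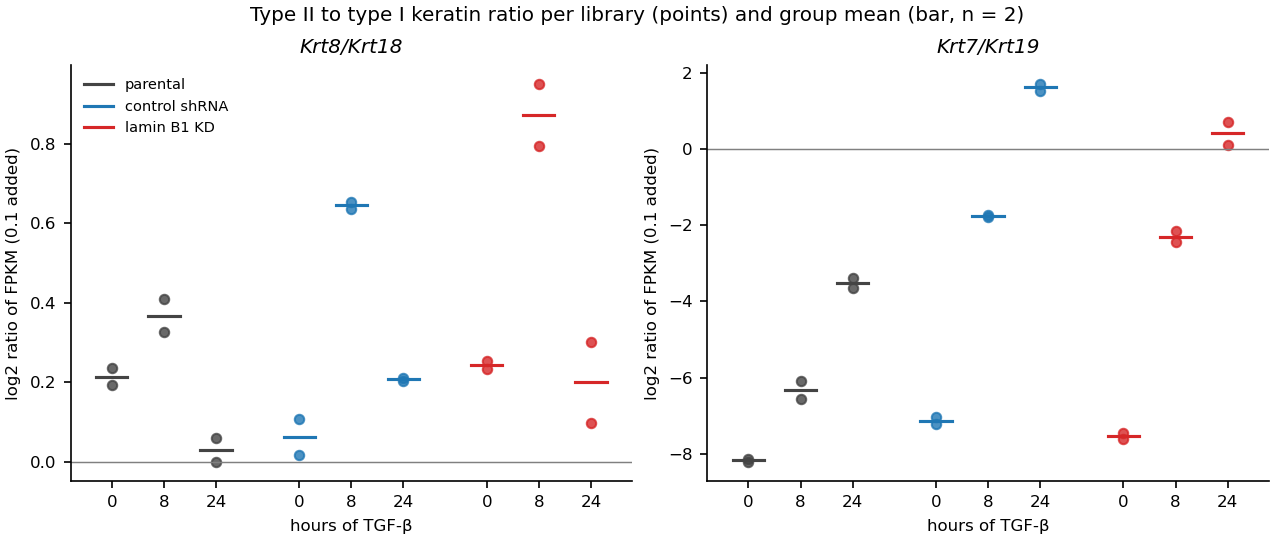
Log2 ratio of Krt8 to Krt18 (left) and of Krt7 to Krt19 (right) in each RNA library, with 0.1 FPKM added to both genes. Points are libraries and bars are means of 2 replicates at 0, 8 and 24 h in parental, control and KD cells. The left ratio stands highest at 8 h in each kind of cells, and the right ratio rises at each step and passes 0, where both genes are equal, at 24 h in infected cells alone.

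Genes with the most similar course over the 18 RNA libraries are given as a description, with each table centred on its own mean and 9130 candidate genes. Krt6a was closest to Krt6b (r = 0.997), Ccdc34 (0.989) and Sbsn (0.987), and Krt19 to Tnfaip8l1 (0.989), Ptprf (0.989) and Cfb (0.988). Nes was closest to the annexin Anxa5 (0.985) and Glipr2 (0.982), and Krt7 to Nav2 (0.971), Plcb3 (0.964) and Rnf19b (0.961). Krt8 was closest to Il18rap (0.970), Lrrc59 (0.969) and Cyp21a1 (0.966), and Krt14 to Amigo1 (0.962), Ccdc120 (0.951) and Cdk2ap1 (0.946). Vim was closest to Galnt1 (0.938), S100a8 (0.930) and Cyth4 (0.928), and Krt18 had the lowest best match, Ube4b and Ttyh3 (0.859 each), followed by Uba1 (0.850). Among the members, Krt6a and Krt19 ran together (0.904) and both ran against Nes (-0.908 and -0.926). Vim ran with Krt8 (0.825) and Krt14 (0.803) rather than against them, and its r with Krt19 was -0.08. These libraries share time points, so the courses are not independent.

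**Figure D5:**
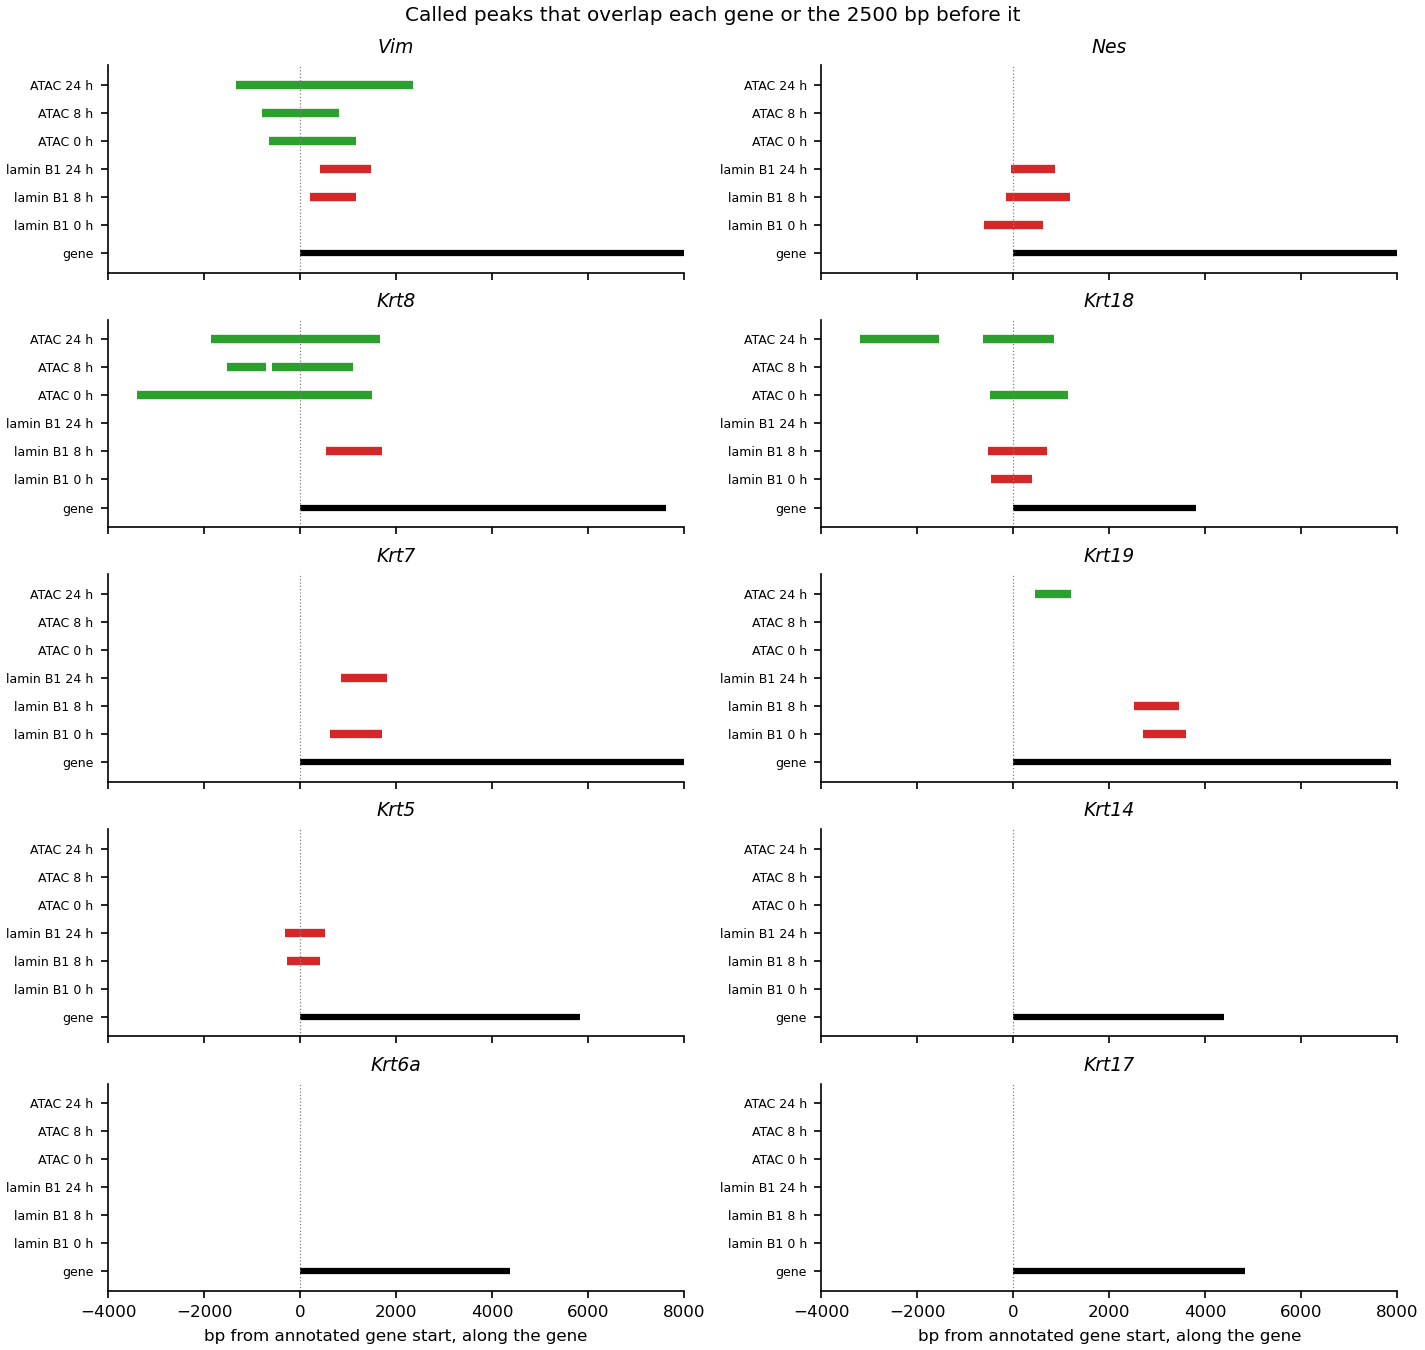
Called lamin B1 peaks (red) and ATAC peaks (green) at each gene, by distance in bp from the annotated gene start along the direction of transcription. The black bar is the gene, cut at the right edge for Vim, Nes and Krt7. Nes carries lamin B1 peaks at its start at all 3 times and no ATAC peak, Vim and Krt8 carry ATAC peaks at all 3 times, and Krt14, Krt6a and Krt17 carry neither.

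Lamin B1 peaks were assigned to a gene where they overlapped it or the 2500 bp before its start. Untreated cells had such a peak at 4 of the 10 genes, Nes, Krt7, Krt18 and Krt19, where 19.3% of 22380 protein-coding genes had one. At 8 h 6 genes had one, Vim, Nes, Krt5, Krt8, Krt18 and Krt19, where 37.6% of genes did, and at 24 h 4 did, Vim, Nes, Krt5 and Krt7, where 28.7% of genes did. The 3 lists hold 4645, 10484 and 7083 peaks and come from 1 library each, so no difference between times was tested. Within 500 bp of the gene start, lamin B1 peaks stood at 2 of the 10 genes without TGF-β, 4 after 8 h and 3 after 24 h, against 15.0%, 29.5% and 23.2% of genes. Krt14, Krt6a and Krt17 had no called peak at any time.

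Nes was the member with a lamin B1 peak at every time. Its peak covered the annotated start each time, from -613 to 613 bp in untreated cells with a MACS score of 71.0, from -149 to 1180 bp at 8 h with a score of 161, and from -44 to 873 bp at 24 h with a score of 51.7. The 8 h score stood above 89.7% of the peaks of its list, and the 24 h score above 3.39%. No ATAC peak was called at Nes, whose promoter sequence is printed above and overlapped all 3 lamin B1 peaks.

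Krt18 and Krt8, neighbours at the end of the chromosome 15 cluster, differed. At Krt18 the lamin B1 peak covered the start and the printed promoter in untreated cells (score 50.8, from -468 to 378 bp) and at 8 h (score 97.1, from -521 to 690 bp), and none was called at 24 h. ATAC peaks covered the same start in untreated cells (score 60.4) and at 24 h (score 77.3) but none was called at 8 h. At Krt8 the lamin B1 peak of 8 h lay inside the gene, 536 to 1697 bp past the start and outside every annotated exon (score 84.0), while ATAC peaks covered the start and the printed promoter at all 3 times with scores of 118, 65.5 and 347.

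At Vim the ATAC peak covered the start and the printed promoter at all 3 times, with scores of 89.5, 80.6 and 357, and its width went from 1820 bp to 1604 bp and then 3690 bp. Lamin B1 peaks of 8 h (score 70.8) and 24 h (66.3) began 199 and 419 bp past the outer start of the gene. Their scores stood above 38.7% and 30.9% of the peaks of their lists. Both overlapped that promoter, but the 24 h peak only at its end: it began at 13495973 and the window ends at 13495987 on mm9. The 24 h peak covered no annotated start. At Krt5, which stayed under 0.3 FPKM, lamin B1 peaks of low score covered the start and the printed promoter at 8 h (54.2) and at 24 h (61.5), with no ATAC peak at any time.

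At Krt7 the peaks of untreated cells (score 51.0) and of 24 h (75.2) lay 623 to 1818 bp past the outer start and covered the starts of 2 annotated transcripts. At Krt19 weak peaks of untreated cells (63.5) and of 8 h (50.1) lay 2516 to 3601 bp past the outer start, which belongs to a processed transcript. The 8 h peak covered the start of the protein-coding transcript and the untreated peak did not. An ATAC peak of 24 h lay at 447 to 1202 bp (score 74.4), when Krt19 RNA was lowest. Within 500 bp of the gene start, ATAC peaks stood at 3 of the 10 genes without TGF-β, 2 after 8 h and 4 after 24 h, where 29.8%, 24.3% and 45.8% of protein-coding genes had one. The ATAC lists hold 9782, 10340 and 33811 peaks.

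Both keratin clusters were read as a whole. The type II cluster on chromosome 15, from 101177875 to 101862457 with 23 keratin genes, held 6 lamin B1 peaks without TGF-β, then 14 after 8 h and 4 after 24 h, or 8.76, 20.5 and 5.84 peaks per Mb where the genome held 1.75, 3.95 and 2.67. The type I cluster on chromosome 11, from 99094075 to 100131185 with 27 keratin genes, held 1, 4 and 0, or 0.964, 3.86 and 0 peaks per Mb. Of these, 1 in untreated cells and 1 at 8 h touched a keratin gene, Krt19. The rates per Mb take no account of how densely genes lie. Of the 23 genes of the type II cluster, 5 were touched by a lamin B1 peak without TGF-β, 9 after 8 h and 3 after 24 h. Among protein-coding genes, 19.3%, 37.6% and 28.7% had such a peak at those times. The genes touched included keratins with little RNA such as Krt4 and Krt78. ATAC peaks numbered 7, 10 and 17 in the type II cluster at the same times, or 10.2, 14.6 and 24.8 per Mb. In the type I cluster they numbered 4, 7 and 27, or 3.86, 6.75 and 26.0 per Mb. The genome held 3.68, 3.89 and 12.7 ATAC peaks per Mb, so its rate rose at 24 h as well.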

How the data were processed

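RNA-seq, lamin B1 ChIP-seq and ATAC-seq of NMuMG cells were analysed, and Hi-C was not analysed here. The submitters' processing notes name Bowtie, TopHat, Cufflinks and mm9. The authors deposited FPKM values, 1 column per library in 2 tables without a header, and each column was read as the condition at that place in the table name. The authors called peaks with MACS and deposited positions with a score of at least 50. No file gives reads, so the depth is unknown. The 10 genes and the gene lists were chosen with earlier results of these data known.

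FPKM was analysed as log2(FPKM + 1) in limma 3.58.1 (R 4.3.3) with a trended eBayes step, 1 fit for each table. Genes at 1 FPKM or more in at least 2 libraries were tested, 11309 in the parental and 11450 in the shRNA table, with Benjamini-Hochberg adjustment at 0.05. A fold on this scale understates the change of low genes. The fit was tested on simulated data. Ratios used exact permutation tests over libraries. Peaks were placed on GENCODE M1 genes. From the lists, genes with the largest called difference and a group mean of at least 5 FPKM were named, up to 4 per list, and the 3 genes most alike in course, of which 1 is not reported here. The marker genes and Krt4 and Krt78, and the KD values of Krt6b and Krt20, were named after their values were seen. Alternatives were 0.1 added, no filter, quantile normalization, only the groups compared, a replicate block, each replicate left out, and other peak rules.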

Additional observations from a re-analysis of the deposited data

Results flagged for a closer look

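Several responses to TGF-β differed between kinds of cells. By the interaction term in limma, the 8 h response was higher in KD than in control cells by 1.205 for Krt6a (adjusted p = 0.033) and by 0.995 for Krt14 (adjusted p = 0.0283), and the 24 h response of Krt14 was higher by 1.57 (adjusted p = 0.00432). Both 8 h calls were lost when any 1 of the 8 h libraries was left out.

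Elsewhere every library of one kind of cells lay on one side of its untreated libraries and every library of another kind on the opposite side. Krt6a at 8 h differed from untreated cells by 0.357 in KD cells, against -1.297 in parental and -0.848 in control cells. Krt14 at 24 h differed by 0.365 in KD and -1.205 in control cells. Krt18 at 8 h differed by 0.20 in parental and -0.13 in KD cells, and Vim at 24 h by 0.213 in KD and -0.21 in parental cells. The contrasts with parental cells cross tables normalized separately, and those differences were not tested.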

How the results depend on the processing

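Depth is unknown, so low values carry no counting interval, and each peak list rests on 1 library. Of 1048 alternative values for single members, 938 kept direction and side of the threshold and 23 reversed. The fits with 1 library left out assume that a lone library varies like the other groups. The cause of each move below was not tested.

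Quantile normalization gave 5 members called in KD cells at 24 h, and 0 for KD against control cells at 8 h. It turned Krt7 from 8 to 24 h in parental cells to -0.026, Krt18 in control cells at 8 h to -0.148, Vim in KD against control cells to 0.061 untreated and 0.141 at 8 h, Krt8 in the same comparison at 8 h to 0.374, the 8 h response differences of Krt8 to 0.305 and Krt18 to 0.007, and that of Vim at 24 h to -0.173. The share of called genes that were higher in the 24 h response moved from 58% to 48%. For KD against control untreated, 1 member was called with 0.1 added, with no filter, and with only the groups compared. At 8 h 0 were called with no filter and 3 with only the groups compared, and at 24 h 0 with only the groups compared. In the 8 h response difference 1 was called with 0.1 added and 0 with no filter.

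Replicate numbers exist for infected cells alone. Over 15 pairs of groups the deviations of same-numbered libraries correlated at -0.135 to 0.368, with 2 over 0.1. These 2 were control with KD cells at 24 h (0.368) and untreated KD with KD cells at 24 h (0.184). Whether same-numbered libraries share more than a number was not tested. With the replicate block, 2 members were called in KD against control at 24 h and 1 in the 8 h response difference, and the block moved no other member count beyond 1.5 times. No paired analysis was possible for parental cells because their columns carry no replicate number.

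Leaving out each library gave 1 to 2 members called in KD against control untreated, 0 to 0 at 8 h and 0 to 5 at 24 h, 0 to 2 in the 8 h response difference and 1 to 3 in the 24 h one. The log2 Krt8/Krt18 ratio ran from 0.1 to 0.168 for KD against control and from -0.062 to 0.006 for 24 h against untreated. Member differences that turned sign in these fits ran from -0.051 to 0.149 for Krt14, parental 24 h vs untreated, from -0.077 to 0.099 for Krt18, control 8 h vs untreated, from -0.123 to 0.485 for Krt7, KD 24 h vs 8 h, from -0.025 to 0.059 for Krt8, KD vs control untreated, from -0.19 to 0.112 for Krt14, KD vs control at 8 h, from -0.387 to 0.375 for Nes, KD vs control at 24 h, from -0.184 to 0.112 for Krt19, KD minus control response at 8 h, from -0.077 to 0.129 for Vim, KD minus control response at 8 h, from -0.482 to 0.126 for Krt7, KD minus control response at 24 h and from -0.032 to 0.168 for Vim, KD minus control response at 24 h.

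Among all genes, leaving out 1 library moved the 465 calls of the 8 h response difference to between 29 and 1485 and the 540 of the 24 h one to between 87 and 2709. In KD against control cells it moved 2254 calls untreated to as few as 689, 4104 at 8 h to 2330 and 3241 at 24 h to 1205. Only the groups compared gave 3701 calls for KD 24 h against 8 h in place of 5933, 732 and 710 for KD against control untreated and at 24 h, and 714 and 88 for the responses at 8 and 24 h. For the 8 h response, no filter gave 297 and the replicate block 284.

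Peaks at or above the median score of their list left lamin B1 at 1, 3 and 0 members at 0, 8 and 24 h and ATAC at 1, 1 and 2. Lists of equal length left lamin B1 at 2 members at 8 h and 1 at 24 h and ATAC at 2 at 24 h, and a window of 500 bp around the start left lamin B1 at 2 untreated. In the type I cluster scores at or above that median left 0 and 1 lamin B1 peaks at 0 and 8 h and 1, 2 and 15 ATAC peaks, and in the type II cluster 1, 7 and 0 lamin B1 peaks and 6 and 8 ATAC peaks at 8 and 24 h. The windows around the start of any protein-coding transcript were chosen after seeing the data. With 2500 bp either side they gave 4, 6 and 4 lamin B1 members. With 500 bp either side they gave 3, 2 and 3 ATAC members, without Krt19 at 24 h.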
